A study of Rattus norvegicus with 9 samples.

Results

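The miR-23/27/24 clusters are a pair of duplicated miRNA loci, and their mature products were read here in cultured rat cartilage progenitor cells. The 9 members were taken by name from a small RNA sequencing table of 726 rows: rno-miR-23a-5p and rno-miR-23a-3p, rno-miR-27a-5p and rno-miR-27a-3p, rno-miR-23b-5p and rno-miR-23b-3p, rno-miR-27b-5p and rno-miR-27b-3p, and rno-miR-24-3p, named below without the rat prefix. All 9 had reads in every library and all 9 were among the 439 miRNAs that passed the filter on low counts. The cells were wild-type primary cultures from condylar cartilage, in 3 groups of 3 libraries. P3 is the control, cultured to passage 3. P9 was carried to passage 9 as a model of replicative senescence, the lasting stop of division that follows repeated subculture, and FFSS is passage 3 cells under flow fluid shear stress, the drag of moving medium. The labels used here give no strength or duration of flow, no animal age and no source for the replicates, so the p-values speak of the spread among these 9 libraries, and that spread may be technical.

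Each locus makes 1 primary transcript that is cut into 3 hairpins, and each hairpin can release a miRNA from its 5′ side (5p) and its 3′ side (3p). A miRNA finds its target mRNAs mainly through its seed, bases 2 to 8, so members with 1 seed are held to share most targets. miR-24 is known to repress the senescence gene Cdkn2a and miR-27b the cartilage collagenase gene Mmp13. Cluster a is known from work on bone-forming cells, and both clusters from endothelium.

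The 3p sequences are printed because they show which members share a seed, given in capitals, and how little separates cluster a from cluster b. The 5p arms of the miR-24 hairpins are added because their sequences, unlike that of miR-24-3p, differ between the loci. Of the 9 members, 8 matched a mature sequence in RefSeq (build GRCr8), all but miR-23a-5p.
miR-23a-3p: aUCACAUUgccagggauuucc
miR-23b-3p: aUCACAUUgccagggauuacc
miR-27a-3p: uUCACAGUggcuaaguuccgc
miR-27b-3p: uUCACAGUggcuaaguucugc
miR-24-3p: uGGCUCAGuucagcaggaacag
miR-24-2-5p: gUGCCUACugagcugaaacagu
miR-24-1-5p: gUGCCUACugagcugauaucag

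Counted from the 5′ end, miR-23a-3p and miR-23b-3p differ by U19A alone, and miR-27a-3p and miR-27b-3p by C19U alone. Each pair is 21 bases long and has its first 18 bases in common, so a read that ends before base 19 cannot be given to cluster a or b. How such reads were divided was not given in the sources used here. No other mature rat miRNA of the RefSeq table had the seed of miR-23 or of miR-27, and none shared that of miR-24-3p. miR-24-3p has the same 22 bases at both loci. The 5p arms of its hairpins differ from base 17 onwards, having their first 16 bases in common.

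In GRCr8, cluster a lay on the minus strand of chromosome 19, at 40859455 to 40859843, with miR-23a, miR-27a and miR-24-2 in the direction of transcription. These 389 bases overlapped no other gene of the RefSeq table, and Zswim4 was the neighbour at lower coordinates. Cluster b lay on the minus strand of chromosome 17, at 1818669 to 1819482, with miR-23b, miR-27b and miR-24-1 in the same order over 814 bases. It overlapped the spans of Aopep, an aminopeptidase gene on the same strand, and of Fancc, a DNA repair gene. Exons were not read here. The submitters' processing notes name the build Rnor_6.0, and these positions belong to GRCr8 only.

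Library totals ran from 2878910 to 8862560 miRNA reads, and FFSS replicates 1 and 3 were the shallowest, at 2878910 and 3896403. P9 replicate 3 and FFSS replicate 1 lay apart from the others of their groups in several of the values below. Of the 4 cartilage markers (both arms of miR-140 and miR-455), none was at 0 in any library, and their summed level was 4150 to 7370 CPM in P3, 2590 to 3850 in P9 and 6080 to 7200 in FFSS. CPM are reads scaled by the library's total. Because whole cultures were read, fewer cells of a type and less RNA per cell cannot be told apart.

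The clusters held 6.48% to 9.90% of all miRNA reads in P3, 4.94% to 7.50% in P9 and 7.49% to 12.2% in FFSS. Most of this was miR-27b-3p, which ranked between 3 and 8 among the 726 rows in every library, and miR-24-3p, which ranked between 7 and 19. In P3 the order by mean level was miR-27b-3p at 57065 ± 14236 CPM, miR-24-3p at 14933 ± 1875, miR-23b-3p at 4840 ± 1129, miR-23a-3p at 3919 ± 1008 and miR-27a-3p at 3562 ± 803 (SD, n = 3). In each P3 library miR-23b-3p was above both miR-23a-3p and miR-27a-3p. The order of miR-23a-3p and miR-27a-3p was not the same in all P3 libraries. The 5p arms followed with miR-27a-5p at 301 ± 61.1 CPM, miR-27b-5p at 282 ± 72.5, miR-23b-5p at 56.1 ± 12.8 and miR-23a-5p at 1.66 ± 0.173. miR-27a-5p was above miR-27b-5p in each P3 library by little, with log2 read ratios of 0.02, 0.21 and 0.08. Adapter ligation favours some sequences, so levels of different miRNAs are reads and not molecules.

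**Figure D1:**
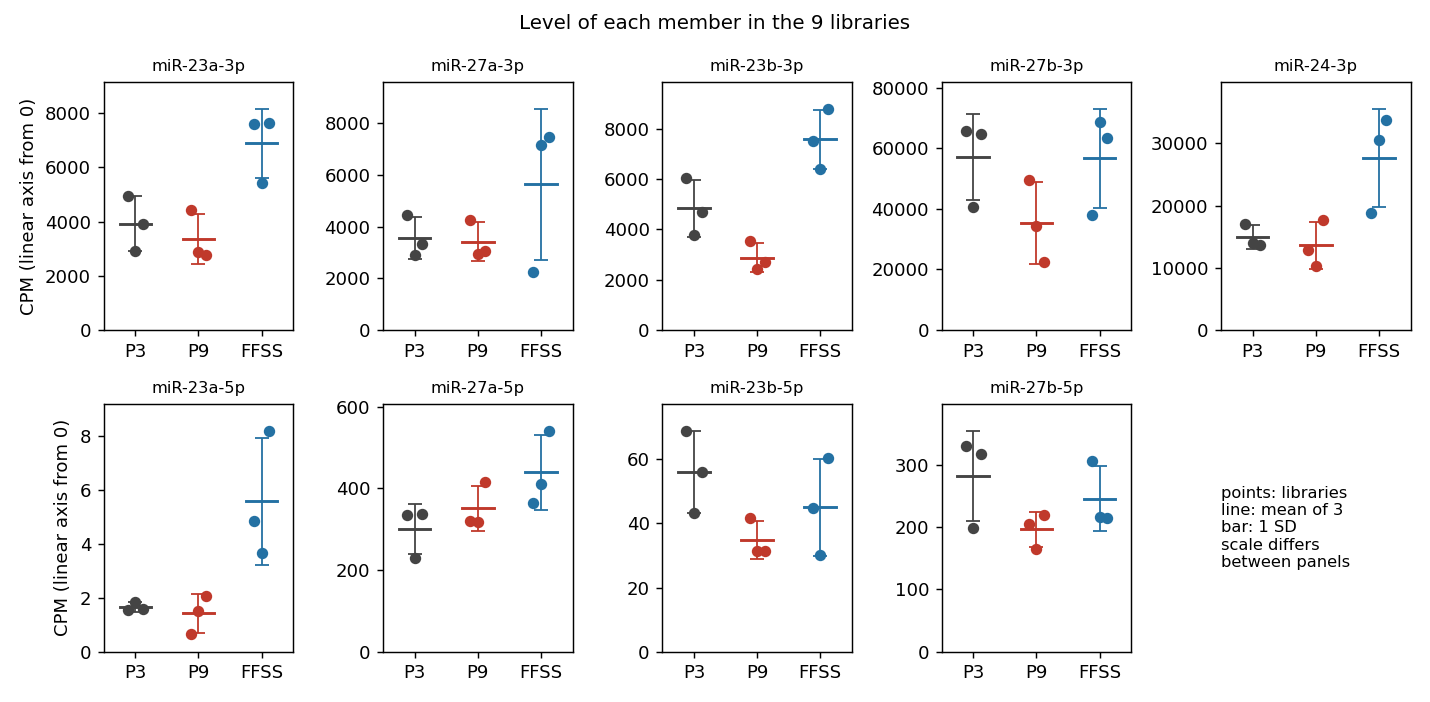
CPM of each member (linear axis from 0, its own scale in each panel) in P3, P9 and FFSS; points are libraries, horizontal lines means of 3 and bars 1 SD. miR-23a-3p and miR-23b-3p in FFSS lie above every P3 and P9 library, while miR-27a-3p in FFSS replicate 1 lies at 2255 CPM, below the other 8 libraries.

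Shear stress was compared with the passage 3 control to ask how mechanical load alters these cells. The members called higher were miR-24-3p, the shared product, and both arms of miR-23a. Mean miR-24-3p went from 14933 ± 1875 to 27676 ± 7873 CPM, miR-23a-3p from 3919 ± 1008 to 6881 ± 1278 CPM, and the scarce miR-23a-5p from 1.66 ± 0.173 to 5.58 ± 2.35 CPM (SD, n = 3). The abundant miR-27b-3p had 57065 ± 14236 CPM in P3 and 56664 ± 16362 CPM in FFSS. Thus 3 of 9 members were called higher and 0 lower, where 20.5% of the 439 miRNAs were called, 6.83% higher and 13.7% lower.

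miR-24-3p had 17087, 14041 and 13671 CPM in the P3 libraries and 18769, 30555 and 33704 CPM in the FFSS libraries. All FFSS libraries were above all P3 libraries, FFSS replicate 1 by little. The log2 fold change was 0.84 (SE 0.27, edgeR quasi-likelihood adjusted p = 0.0459).

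miR-23a-3p had 4927, 2911 and 3919 CPM in P3 and 7612, 5405 and 7625 CPM in FFSS. The groups did not overlap, and the log2 fold change was 0.79 (SE 0.24, edgeR adjusted p = 0.0392). Its near-identical partner miR-23b-3p had 6033, 3788 and 4699 CPM in P3 and 7531, 6423 and 8799 CPM in FFSS. These did not overlap either, and its value of 0.62 (SE 0.22, edgeR adjusted p = 0.0600) missed the threshold. With the 2 counted as 1 miRNA, which does not depend on how reads were split between a and b, the value was 0.67 (SE 0.23, edgeR adjusted p = 0.0563). Whether reads that fit both rows were counted in each, and so repeat in this sum, was not tested.

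miR-23a-5p, the minor arm of its hairpin, rested on 13, 14 and 14 reads in P3 and 14, 26 and 32 reads in FFSS. Its log2 fold change was 1.65 (SE 0.51, edgeR adjusted p = 0.0399). The reads of FFSS replicate 1 equal those of P3 because that library is shallow, and in CPM they were 4.86 against 1.55 to 1.86. The 95% Poisson interval on 14 reads runs from 7.65 to 23.5.

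The calls under shear stress were not stable. No member was called without P3 replicate 1, 2 or 3, P9 replicate 2 or FFSS replicate 3, and 1 was called without P9 replicate 1. Over the 9 fits that left out 1 library, miR-24-3p was called in 2 (adjusted p 0.0165 to 0.186), miR-23a-3p in 2 (0.0300 to 0.188) and miR-23a-5p in 3 (0.0174 to 0.158). The log2 fold changes stayed positive in all of them, at 0.64 to 0.90, 0.53 to 0.87 and 1.36 to 1.80. With the replicate number as a block, 0 members were called.

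Of the other members, miR-27a-3p had 4461, 2916 and 3308 CPM in P3 and 2255, 7172 and 7465 CPM in FFSS. FFSS replicate 1 was the lowest of all 9 libraries and the other 2 the highest. The value was 0.60 (SE 0.34, edgeR adjusted p = 0.211), and 0.85 (adjusted p = 0.0202) without FFSS replicate 1. miR-27a-5p did not overlap between the groups and had 0.50 (SE 0.28, edgeR adjusted p = 0.220). Non-overlap with FFSS above P3 held for 5 of 9 members, against 18.9% of the 439 miRNAs. The remaining cluster b arms had values of -0.36 for miR-23b-5p, -0.05 for miR-27b-3p and -0.21 for miR-27b-5p, with SE 0.29 to 0.31 and adjusted p of 0.385 to 0.914. The median log2 fold change of the members was 0.60, and that of all miRNAs tested 0.02.

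The passage 9 cells were set against the passage 3 control as the contrast for replicative senescence. Cluster b was read at lower levels in P9 than in P3, cluster a at about the same levels, and none of these differences passed the test. miR-27b-3p had 65707, 40634 and 64853 CPM in P3 and 49441, 34314 and 22500 CPM in P9. miR-23b-3p had 3538, 2410 and 2686 CPM in P9, each below the lowest P3 library at 3788. Of the 9 members 0 were called by edgeR, where 7.29% of the 439 miRNAs were (3.87% higher and 3.42% lower), and 2 had an unadjusted p under 0.05; DESeq2 also called 0.

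In log2 fold changes the 4 cluster b arms stood at -0.68 (miR-23b-3p, SE 0.22, edgeR adjusted p = 0.0762), -0.62 (miR-23b-5p, SE 0.30, 0.312), -0.65 (miR-27b-3p, SE 0.29, 0.252) and -0.45 (miR-27b-5p, SE 0.31, 0.507). The 4 cluster a arms stood at -0.17 (miR-23a-3p), -0.13 (miR-23a-5p), 0.01 (miR-27a-3p) and 0.30 (miR-27a-5p), with edgeR adjusted p of 0.643 to 0.995. miR-24-3p had 12788, 10228 and 17708 CPM in P9 and a value of -0.06 (SE 0.27, edgeR adjusted p = 0.956). Its highest P9 library was replicate 3, in which miR-27b-3p was lowest. Both arms of miR-23b were lower without overlap, 2 of 9 members against 14.1% of the 439 miRNAs. The median of the members was -0.17, and that of all miRNAs 0.06. Without P9 replicate 3 the value for miR-27b-3p was -0.43 (edgeR adjusted p = 0.413). The sign for miR-27a-3p turned under DESeq2 size factors and library size alone, to -0.004 and -0.06.

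P9 and FFSS, the senescence and shear stress models, were also set directly against each other. In CPM, both miR-23 3p arms and miR-24-3p were lower in passage 9 cells than in sheared cells. miR-23b-3p had 2878 ± 588 against 7584 ± 1189 CPM, miR-23a-3p 3344 ± 923 against 6881 ± 1278 CPM and miR-24-3p 13575 ± 3802 against 27676 ± 7873 CPM (SD, n = 3). The scarce miR-23a-5p was also called lower, while the arms of miR-27 and miR-23b-5p did not pass. In all 4 of 9 members were lower and 0 higher in P9, where 34.4% of the 439 miRNAs were called, 11.8% lower and 22.6% higher. These 4 did not overlap between the groups, as did 19.8% of the 439 miRNAs in that direction. All 9 had a negative log2 fold change, and the median was -0.60 against 0.02 for all miRNAs.

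miR-23b-3p had the largest change of an abundant member, at -1.30 (SE 0.22, edgeR adjusted p = 8.28e-04). It kept its call whichever library was left out (9 fits, adjusted p 0.00128 to 0.0127) and under all 11 other alternatives, with -1.41 to -1.11 over all of them. miR-23a-3p followed at -0.96 (SE 0.24, edgeR adjusted p = 0.00838), and among those 9 fits lost its call without P9 replicate 2 (0.0746). miR-23a-5p had -1.78 (SE 0.51, edgeR adjusted p = 0.0185) and lost its call in 3 of them, those without P9 replicate 1, P9 replicate 2 or FFSS replicate 3, where the adjusted p reached 0.0830. The value for miR-24-3p was -0.89 (SE 0.27, edgeR adjusted p = 0.0229), which kept its call in 2 of the 9 fits; the adjusted p ran from 0.00197 to 0.155, and it was 0.0630 in a fit of only P9 and FFSS. Without P9 replicate 1 or FFSS replicate 3 the number of members called was 2, and without P9 replicate 2 it was 1.

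Both miR-27 3p arms were lower in the mean in P9 as well. miR-27b-3p had -0.60 (SE 0.29, edgeR adjusted p = 0.118) and miR-27a-3p -0.60 (SE 0.34, edgeR adjusted p = 0.178). Without FFSS replicate 1 the value for miR-27a-3p was -0.83 (adjusted p = 0.0122). The other 5p arms had -0.19 to -0.25 and adjusted p of 0.533 to 0.608.

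**Figure D2:**
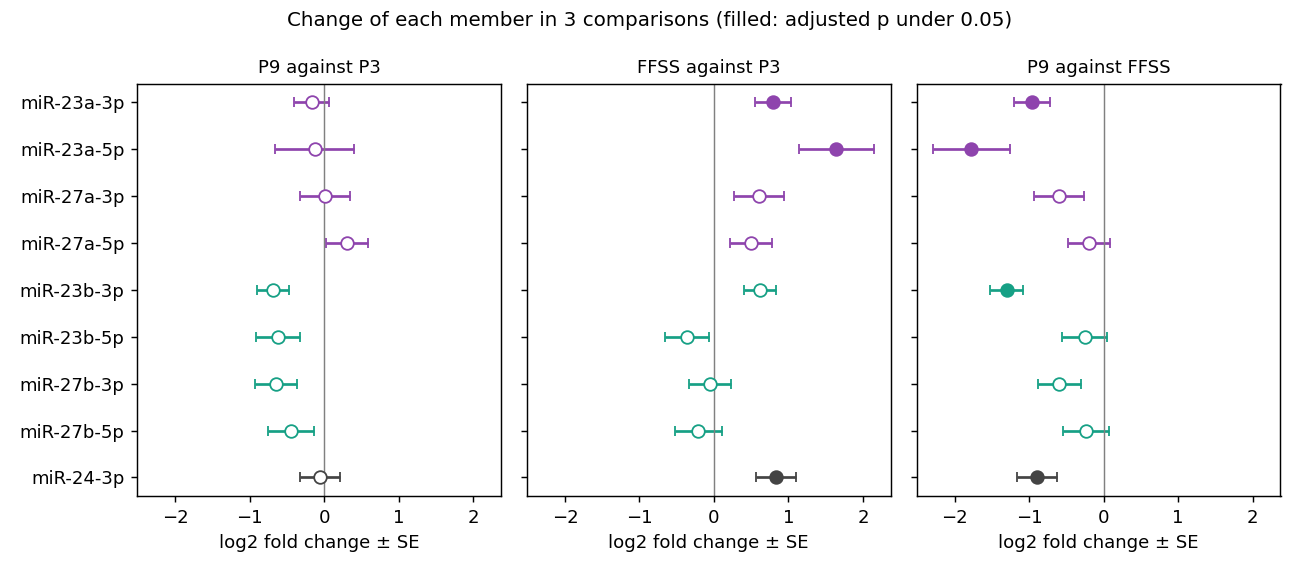
Log2 fold change of each member with its SE (horizontal axis) in the 3 comparisons; purple marks cluster a, green cluster b, grey miR-24-3p, and filled points passed an adjusted p under 0.05. For P9 against P3 the 4 green points lie between -0.68 and -0.45 and the purple ones between -0.17 and 0.30, all open.

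To compare cluster a with cluster b within a library, the ratio of their reads was taken, which needs no scaling between libraries. At passage 9 the balance between miR-23a-3p and miR-23b-3p moved towards cluster a. miR-23a-3p made up 43.5% to 45.5% of the miR-23 3p reads in P3 and 50.6% to 55.5% in P9, without overlap. The log2 ratio of a to b went from -0.31 ± 0.06 to 0.20 ± 0.15 (SD, n = 3), a change of 0.51 (SE 0.10, limma adjusted p = 0.0132 over 29 a to b pairs of the table). Of the 29 pairs, 24.1% were called in this comparison, and 34.5% were higher without overlap. These pairs include 1 with the same reads in both rows, whose ratio could not change. The call for miR-23a-3p to miR-23b-3p depended on single libraries. The call was lost without P3 replicate 2 (adjusted p = 0.0503) or P9 replicate 1 (0.0713) or 2 (0.0617), with changes of 0.46 to 0.60 over the 9 fits.

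The other pairs had positive changes at passage 9 and did not pass. miR-27a-5p to miR-27b-5p had log2 ratios of 0.02, 0.21 and 0.08 in P3 and 0.65, 0.94 and 0.92 in P9. These did not overlap, and the change was 0.73 (SE 0.26, limma adjusted p = 0.0935). It was called without FFSS replicate 1 (adjusted p = 0.00902) or 3 (0.0445), which leave the change as it is and alter only the estimate of the spread. miR-27a-3p to miR-27b-3p changed by 0.67 (SE 0.31, limma adjusted p = 0.146), also without overlap. Here cluster b is the main source in each library: miR-27a-3p was 4.85% to 6.70% of the miR-27 3p reads in P3, 7.86% to 11.97% in P9 and 5.60% to 10.5% in FFSS.

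The 5p arms of the miR-24 hairpins gave a further a to b ratio. How far reads of miR-3074, encoded on the other strand of the miR-24-1 hairpin, entered the miR-24-1-5p row was not tested. miR-24-2-5p, from cluster a, had 1429 to 1485 CPM in P3, and miR-24-1-5p, from cluster b, 82.0 to 109 CPM. In P9 the values were 1255, 1353 and 1645 CPM for miR-24-2-5p and 48.7, 49.2 and 104 CPM for miR-24-1-5p, so that replicate 3 kept the P3 level of the cluster b arm and the others did not. The log2 ratio was 3.77 to 4.12 in P3 and 4.68, 4.78 and 3.98 in P9, a change of 0.56 (SE 0.25, limma adjusted p = 0.142). Without P9 replicate 3 it was 0.81 (adjusted p = 0.0282).

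Under shear stress the miR-23 3p balance was -0.15 ± 0.14 against -0.31 ± 0.06 in P3 (change 0.16, SE 0.10, limma adjusted p = 0.331). miR-27a-5p to miR-27b-5p stood at 0.26, 0.93 and 1.34 in the FFSS libraries, above every P3 library, with a change of 0.73 (SE 0.26, limma adjusted p = 0.108) and, without FFSS replicate 1, of 1.02 (adjusted p = 0.00661). Of the 29 pairs 10.3% were called and 17.2% were higher without overlap, and 0 of the 4 member pairs were called. Between P9 and FFSS 17.2% of the pairs were called and again 0 of the 4, with miR-23a-3p to miR-23b-3p at 0.35 (SE 0.10, limma adjusted p = 0.0618) higher in P9, without overlap, as were 24.1% of the pairs. miR-23a-5p was too rare for this fit; its log2 ratio to miR-23b-5p was -5.43 to -4.49 in P3, -5.86 to -3.88 in P9 and -3.16 to -2.86 in FFSS. With a minimum of 5 mean counts the change under shear stress was 2.0 (SE 0.51, limma adjusted p = 0.0615).

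**Figure D3:**
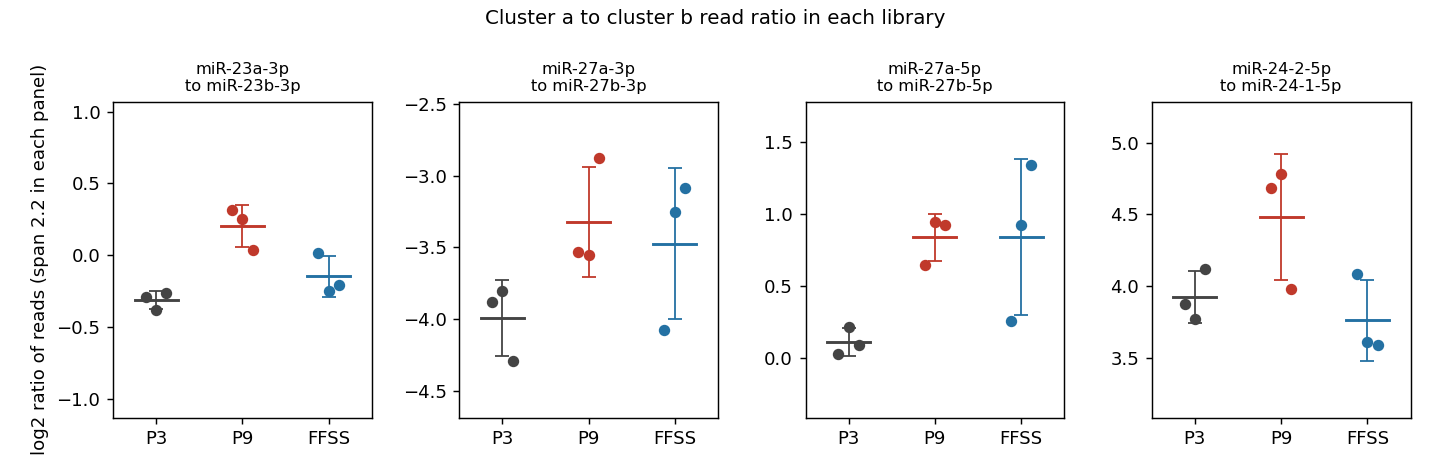
Log2 ratio of cluster a to cluster b reads (vertical axis, the same span in each panel) for 4 pairs in P3, P9 and FFSS; points are libraries, lines means and bars 1 SD. For miR-23 3p the P9 libraries lie at 0.04 to 0.32 and the P3 libraries at -0.38 to -0.26.

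Summed over both arms of miR-23 and miR-27, cluster a to cluster b had log2 ratios of -2.89, -2.88 and -3.21 in the P3 libraries. The P9 libraries had -2.56, -2.59 and -2.03, and the FFSS libraries -2.16, -2.53 and -2.21. Both P9 and FFSS lay above P3 without overlap. The exact permutation test over the 3 groups gave p = 0.05 and, adjusted over the 4 ratios tested this way, p = 0.200 (the smallest p it can give is 0.00357; for 3 against 3 libraries it is 0.10). Without P9 replicate 3 the adjusted exact p was 0.0286, and over the 9 sets with 1 library left out it was 0.0286 to 0.457.

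Hairpins of 1 transcript need not yield miRNAs in a fixed proportion, and within the clusters the proportions varied. In cluster a, the log2 ratio of miR-27a-3p to miR-23a-3p was -0.24 to 0.00 in P3 and -0.05 to 0.15 in P9. In FFSS it was -1.76, 0.41 and -0.03, so replicate 1 alone held far fewer miR-27a-3p reads (6491 against 21914 of miR-23a-3p). The exact permutation p over the groups was 0.839, and without that library the adjusted exact p was 0.386. In cluster b, miR-27b-3p to miR-23b-3p had means of 3.55 ± 0.20 in P3, 3.57 ± 0.43 in P9 and 2.87 ± 0.54 in FFSS (SD, n = 3; exact permutation p = 0.136, adjusted 0.271). miR-24-3p against the sum of the miR-23 and miR-27 3p reads had -2.19 ± 0.33, -1.71 ± 0.79 and -1.48 ± 0.10 (exact permutation p = 0.257, adjusted 0.343), and P9 replicate 3, at -0.81, was the highest of all libraries. Without it the adjusted exact p was 0.0667 for this ratio and also for miR-27b-3p to miR-23b-3p.

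The ratio of the arms was read for each hairpin. The 3p arm was the main product of all 4 hairpins. Of these only miR-23b held the FFSS libraries apart from both other groups, in a change that did not pass the test. Its 5p arm made up 1.13%, 1.13% and 1.18% of the hairpin's reads in P3 and 1.17%, 1.28% and 1.16% in P9, but 0.591%, 0.466% and 0.681% in FFSS. The P3 and P9 libraries lay close together and each FFSS library well below them. The 5p arm is printed because this ratio turns on it.
miR-23b-5p: gGGUUCCUggcaugcugauuu

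The log2 arm ratio, 5p to 3p, of miR-23b was -6.43 ± 0.03 in P3, -6.36 ± 0.08 in P9 and -7.44 ± 0.28 in FFSS (SD, n = 3). The change under shear stress was -1.01 (SE 0.32, limma adjusted p = 0.0720 over 89 hairpins), and P9 against FFSS gave 1.08 (SE 0.32, adjusted p = 0.0525). Neither passed. For shear stress 4.49% of the hairpins were called, and 29.2% lay lower without overlap; in P9 against FFSS 19.1% lay higher without overlap. With at least 100 mean counts on each arm both passed (adjusted p = 0.0413 and 0.0256), as they did without P9 replicate 3 (0.0254 and 0.0239); over the 9 fits the change under shear stress was -1.13 to -0.86 and the adjusted p 0.0254 to 0.215. The ratio rests on 129 to 235 reads of the 5p arm in FFSS. In CPM miR-23b-3p was higher in every FFSS library than in any P3 library, while miR-23b-5p had 44.8, 30.1 and 60.3 CPM in FFSS and 69.0, 43.3 and 56.0 in P3.

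The other hairpins showed no such separation. miR-27a, with the least uneven arms, had log2 ratios of -3.73, -3.66 and -3.29 in P3 and -2.63, -4.12 and -3.78 in FFSS (change 0.05, SE 0.43, limma adjusted p = 0.927). miR-27b had -7.68 to -7.64 in P3 and -6.96, -8.31 and -8.21 in FFSS (change -0.16, SE 0.45, limma adjusted p = 0.778). In both, FFSS replicate 1 stood high and the other 2 low. Without it the changes were -0.39 (limma adjusted p = 0.497) for miR-27a and -0.60 (0.332) for miR-27b. At passage 9 the changes were 0.07 (SE 0.32) for miR-23b, 0.29 (SE 0.43) for miR-27a and 0.23 (SE 0.45) for miR-27b, each with a limma adjusted p of 0.989, and 0 of the 89 hairpins were called, which is 0%. P9 replicate 3 was the highest P9 library for miR-27a and miR-27b, and without it the changes were 0.09 and -0.15. Between P9 and FFSS 7.87% of hairpins were called. miR-23a, with 5 to 32 reads on its 5p arm, was below the minimum of 20 mean counts; its log2 ratio was -11.1 ± 0.52 in P3, -11.2 ± 1.18 in P9 and -10.3 ± 0.40 in FFSS. miR-24-3p has no arm ratio of its own, since 2 hairpins make it.

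**Figure D4:**
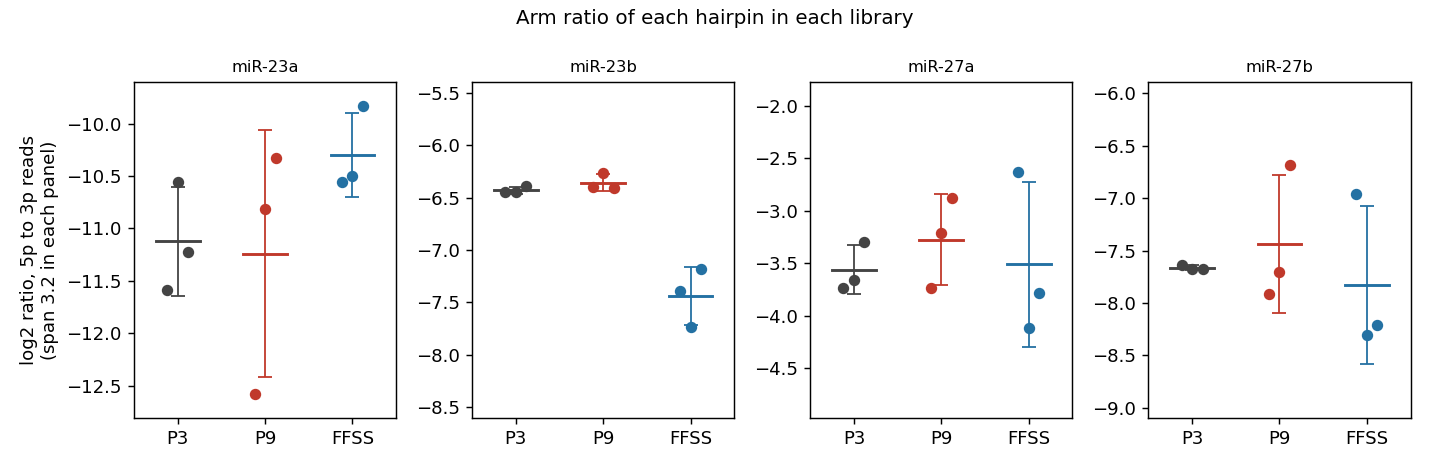
Log2 ratio of 5p to 3p reads (vertical axis, the same span in each panel) of the 4 hairpins in P3, P9 and FFSS; points are libraries, lines means and bars 1 SD. For miR-23b the FFSS libraries lie at -7.74 to -7.19 and the 6 others at -6.45 to -6.27.

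Markers of other cell types also differed between the groups, in part through single libraries. The endothelial pair miR-126a-3p and miR-126a-5p, of a cell type that also makes miR-23/27/24, summed to 386 to 406 CPM in P3, 275 to 491 in P9 and 556 to 695 in FFSS. Almost all of this was miR-126a-3p. Its log2 fold change under shear stress was 0.61 (SE 0.32, edgeR adjusted p = 0.192), and that of miR-126a-5p 0.03 (SE 0.56, adjusted p = 0.978). The 5 muscle markers summed to 141 to 158 CPM in P3, 151 to 534 in P9 and 189 to 538 in FFSS, the 7 blood markers to 75.8 to 157, 69.6 to 308 and 167 to 592, and the 7 epithelial ones to 81.1 to 102, 25.2 to 77.7 and 90.4 to 226. The liver marker miR-122-5p had 9.87 to 11.7, 3.43 to 22.9 and 15.5 to 51.4 CPM. The sums of the 6 nervous system markers overlapped between all groups, at 748 to 1567, 994 to 2423 and 623 to 1653 CPM. Of these markers miR-9a-5p alone held FFSS apart, at 61.8 to 133 CPM. It had 29.8 to 47.6 CPM in P3 and 33.5 to 57.2 in P9. Within FFSS the endothelial, muscle, blood, liver and epithelial values were highest in replicate 1, the shallowest library, and the nervous system sum was lowest there. In that library miR-24-3p was the lowest of its group, at 18769 CPM, while miR-23a-3p, at 7612 CPM, was not. Blood miR-144-3p was at 0 in all P3 libraries and P9 replicate 3, blood miR-223-3p in P9 replicate 3 and FFSS replicates 1 and 2, miR-144-5p in FFSS replicate 2, neuronal miR-124-3p in P9 replicates 1 and 2, miR-219a-5p in FFSS replicate 1, and epithelial miR-141-3p, miR-429 and miR-205 in P9 replicate 3. Of the markers tested under shear stress, 1 of 4 for blood, 1 of 6 for epithelium and 1 of 4 for the nervous system were called higher, and none of the endothelial, muscle, liver or cartilage ones. Of all 439 miRNAs, 6.83% were called higher there. In P9 against FFSS 1 of 4 for cartilage (miR-140-3p, log2 fold change -1.06, SE 0.27, edgeR adjusted p = 0.00953), 1 of 4 for blood and 1 of 6 for epithelium were called lower in P9. That is the direction of the 4 members called, and 11.8% of the 439 miRNAs were called lower in P9 as well. In P9 against P3 no marker of these lists was called, against 7.29% of the 439 miRNAs. The part of these cells in the levels of miR-24-3p and miR-23 in FFSS and P9 was not tested.

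The miRNAs whose profile over the 9 libraries was most like that of a 3p member were sought among 174 others with a mean of at least 50 CPM, by Pearson's r of TMM-scaled log2 CPM; the points share libraries and depth, and r is given as a description. miR-27b-3p was closest to miR-199a-3p (0.966) and miR-148b-3p (0.921). miR-23b-3p was closest to miR-146a-5p (0.938) and miR-3557-5p (0.936), a row nearly identical in counts to miR-378a-3p. The size of a change does not enter r. In P9 against P3 miR-146a-5p had a log2 fold change of -3.82 and miR-3557-5p -2.02, against -0.68 for miR-23b-3p. For FFSS against P3 the values were 4.20, 0.58 and 0.62. miR-23a-3p was closest to miR-25-3p (0.906) and miR-455-3p (0.903), and miR-27a-3p to miR-22-3p (0.873) and miR-3556a (0.867). miR-24-3p was closest to miR-3074 (0.926), which lies opposite miR-24-1, and miR-674-3p (0.920). Between members, miR-23a-3p and miR-23b-3p had r = 0.904 over the 9 libraries and 0.886 over the 8 without FFSS replicate 1. miR-23a-3p and miR-27a-3p, from 1 cluster, had 0.222 over all 9 and 0.904 without that library, so the low value rests on it. miR-23b-3p and miR-27b-3p had 0.558 and 0.761. The rows most like miR-27a-3p were not sought again without FFSS replicate 1.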

How the data were processed

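The authors deposited, per the file headers, a read count for each miRNA row and library beside a TPM value. That TPM equals CPM, reads scaled to equal library totals, to within 4.85e-05. The submitters' processing notes name Bowtie, without a version, and Rnor_6.0. The counting program and miRNA release were not given in the sources used here. For testing, counts as deposited went into edgeR 4.0.16 (R 4.3.3): filterByExpr kept 439 of 726 rows, with TMM scaling, 1 model of all 9 libraries and the robust quasi-likelihood test, adjusted by Benjamini-Hochberg over the 439. Log2 read ratios (0.5 added, at least 20 mean counts in each row) were tested with limma 3.58.1 over 89 hairpins, and over 29 pairs named alike but for a and b or hairpin 2 and 1. The fits were tested on simulated data with changes planted in P9 only. The ratio fit was not simulated at counts as low as those of miR-23b-5p. Alternatives were other scalings, filters and offsets, DESeq2 1.42.0, limma on log2 TPM with 1 or 10 added, fits of 2 groups, a replicate block, summed a and b rows and each library left out; leaving out constant pairs, P9 replicate 3 with FFSS replicate 1, or, for correlations, FFSS replicate 1, was chosen after seeing the data. Named are the 9 members, the miR-24 5p arms, miR-3074, cell type markers and, for each 3p member, the 2 miRNAs most alike. Members and lists were chosen with earlier results of these data known. Every count and TPM column belonged to a labelled library. Intervals cover counting error only.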

Additional observations from a re-analysis of the deposited data

How the results depend on the processing

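Members called under shear stress (3 of 9) numbered 1 with TMM without the 10 most abundant miRNAs and with limma on log2 TPM with 1 or 10 added, 0 without a filter, 4 without P9 replicate 3 and FFSS replicate 1, and 0 to 3 with 1 library left out. At passage 9 against passage 3 they numbered 0 to 0 with 1 library left out and 1 (miR-23b-3p) without both libraries; for P9 against FFSS (4 of 9) 1 to 5 with 1 left out. Replicate numbers did not pair the libraries (deviation correlations -0.415 to 0.136, 1 of 9 libraries closest to its own number); with the replicate block 0 members were called under shear stress. The cause of these differences was not tested.

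Member hairpins with a changed arm ratio (0) numbered 1 in both FFSS comparisons with at least 100 mean counts and without both libraries, 1 in P9 against FFSS with an offset of 5, and 0 to 1 in both with 1 library left out. Member pairs with a changed a to b ratio numbered 0 to 2 (P9 against P3, 1 with all libraries), 0 to 1 (FFSS against P3, 0) and 0 to 2 (P9 against FFSS, 0) with 1 left out, 3, 2 and 2 without both libraries, and 1 in P9 against FFSS with at least 100 mean counts.

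No result that changed sign was called in either fit. For P9 against P3, miR-27a-3p had -0.0037 with DESeq2 size factors and with DESeq2, -0.059 with library size alone, -0.0029 with TMM without the 10 most abundant, and -0.057 and -0.056 on log2 TPM with 1 and 10 added. miR-24-2-5p had -0.047 with library size alone and -0.056 on both log2 TPM scales. With a mean of at least 50 counts miR-24-3p had 0.043 for P9 against P3 and miR-27b-3p 0.020 for FFSS against P3. With 1 library left out, P9 against P3 ran from -0.13 to 0.11 for miR-27a-3p, -0.15 to 0.13 for miR-24-2-5p, -0.56 to 0.21 for miR-23a-5p and -0.36 to 0.14 for miR-24-3p; FFSS against P3 from -0.32 to 0.024 for miR-27b-3p (0.049 without both libraries); P9 against FFSS from -0.33 to 0.020 for miR-27a-5p (-0.34 without both libraries) and -0.38 to 0.15 for miR-27b-5p. Arm ratios ran from -0.39 to 0.36 (miR-27a, FFSS against P3), -0.070 to 0.68 (miR-27a, P9 against FFSS), -0.15 to 0.47 (miR-27b, P9 against P3) and -0.60 to 0.078 (miR-27b, FFSS against P3). For P9 against FFSS the a to b ratio ran from -0.30 to 0.25 for miR-27a-5p to miR-27b-5p (-0.34 without both libraries) and -0.15 to 0.34 for miR-27a-3p to miR-27b-3p (-0.37 without both libraries). The adjusted exact p of summed cluster a to b was 0.0286 to 0.457 with 1 library left out. Depth limits miR-23a-5p, with 5 to 32 reads.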

Other observations

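miR-3074 is encoded opposite the miR-24-1 hairpin of cluster b. Its sequence is printed because 20 of its 22 bases are the reverse complement of a run in miR-24-1-5p.
miR-3074: gAUAUCAGcucaguaggcaccg
The P3 libraries had 645, 664 and 515 reads of miR-3074. The P9 libraries had 257, 243 and 758, and the FFSS libraries 191, 1173 and 731. These were 62.8% to 89.9% of the miR-24-1-5p reads of the same library, and the log2 CPM of both rows had a Pearson r of 0.995 over the 9 libraries. Whether the counting used strand was not given in the sources used here. Both rows hold different counts, and how far reads of miR-3074 and miR-24-1-5p were separated was not tested. Elsewhere miR-3557-5p and miR-378a-3p had nearly identical counts, and whether reads were counted in more than 1 row was not tested. The values of miR-3074 are therefore not held to be separate from those of miR-24-1-5p. P9 replicate 3 held more of both than the other P9 libraries, with 758 and 853 reads. Without it the log2 fold change of miR-3074 in P9 against P3 was -1.20 (edgeR adjusted p = 0.0564), and with it -0.41 (0.749).

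Without P9 replicate 3 and FFSS replicate 1, an alternative chosen after seeing the data, miR-24-1-5p was lower in P9 than in P3 (log2 fold change -0.96, edgeR adjusted p = 0.00952) and higher in FFSS (0.83, adjusted p = 0.0126). With all libraries the values were -0.44 (SE 0.41, edgeR adjusted p = 0.644) and 0.63 (SE 0.41, adjusted p = 0.271). miR-24-2-5p had -0.13 (edgeR adjusted p = 0.699) and 0.52 (0.0481) without those libraries, and 0.02 and 0.42 with them.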
